A study of Mus musculus with 6 samples.

Results

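The 10 seminal vesicle secretory genes Svs1, Svs2, Svs3a, Svs3b, Svs4, Svs5, Svs6, Pate4, Pate14 and Ceacam10 were read out by name from a table of 22134 mouse genes, and all 10 were present. The libraries were made from total RNA of adipose tissue of WT mice after removal of ribosomal RNA. The first group was creeping fat, the mesenteric fat that wraps an injured bowel, taken after repeated colonic cautery injury (n = 3). The second was mesenteric adipose tissue of mice without that injury (control, n = 3). No label gave age, strain or whether each sample was a separate animal, and a p-value below reflects the spread among the sampled libraries alone, part of which may be technical. The 4 Y-linked genes examined (Ddx3y, Eif2s3y, Kdm5d and Uty) had 2.73 to 12.3 FPKM in creeping fat and 2.48 to 14.6 FPKM in controls, so all 6 libraries held RNA of males. Values are FPKM, fragments scaled to the length of the gene and the size of the library, so that levels of different genes can be compared per length. The genes were chosen by their FPKM in these same libraries, creeping fat against control, so their levels are given as a description with no test.

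The seminal vesicle is a paired gland of the male reproductive tract whose epithelium, under androgen control, makes most of the fluid volume of the ejaculate. In rodents its main proteins clot after mating into the copulatory plug, when the transglutaminase Tgm4 from the coagulating gland, a lobe of the prostate, cross-links them. Svs2, Svs3a, Svs3b, Svs4, Svs5 and Svs6 belong to a family related to the human semenogelins, in which the signal peptide is conserved while the secreted protein evolves fast. Svs2 is the principal clotting protein. Svs1 is related to copper amine oxidases, Pate4 and Pate14 are small secreted proteins with the fold of the Ly-6 family, and Ceacam10 is a secreted member of the carcinoembryonic antigen family.

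The kinship inside the cluster can be read from the first 60 coding bases, which encode the signal peptide and are shown because they carry what the family shares. Capitals mark the bases that are identical in all genes of a set. In the set of the larger proteins 46 of 60 bases were shared:
Svs2: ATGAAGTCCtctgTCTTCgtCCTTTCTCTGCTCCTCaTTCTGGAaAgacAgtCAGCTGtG
Svs3a: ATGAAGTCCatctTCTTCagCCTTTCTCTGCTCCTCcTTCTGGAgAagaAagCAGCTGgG
Svs3b: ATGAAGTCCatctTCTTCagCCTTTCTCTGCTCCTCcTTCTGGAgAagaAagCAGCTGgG
In the set of the smaller proteins 41 of 60 bases were shared:
Svs4: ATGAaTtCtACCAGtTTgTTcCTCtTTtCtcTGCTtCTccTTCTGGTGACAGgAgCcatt
Svs5: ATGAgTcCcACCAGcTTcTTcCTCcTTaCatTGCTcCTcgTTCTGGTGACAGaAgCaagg
Svs6: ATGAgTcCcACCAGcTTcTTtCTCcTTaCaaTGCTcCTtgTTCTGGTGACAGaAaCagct
These bases come from the GENCODE vM21 transcripts (GRCm38). Svs5 and Svs6 were identical at 88.3% of these first bases and at 47.9% of the aligned columns of the rest of the coding sequence. For Svs2 and Svs3a the same measures were 76.7% and 43.2%. The aligned columns include gaps, so unlike lengths lower the second measure, and the 2 measures are not alike. Svs2 and Svs3a, with coding lengths of 1128 and 798 bases, had 475 identical bases in 1100 such columns. Svs3a and Svs3b were identical at all 60 bases and at 99.1% of the whole coding sequence of 798 bases. Reads from Svs3a and Svs3b can therefore be split between them by the counting in ways not known here, and their separate values are uncertain.

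All 6 of these genes lie within 98466 bases of chromosome 2 (GRCm38.p6), in the order Svs2, Svs3b, Svs4, Svs3a, Svs6 and Svs5, with no other gene of the table between them. Svs2 (chr2:164235929-164238341), Svs3b (chr2:164254363-164256643) and Svs4 (chr2:164275956-164278307) are on the minus strand. Svs3a (chr2:164289267-164291500), Svs6 (chr2:164316751-164318450) and Svs5 (chr2:164332765-164334394) are on the plus strand. Svs1 lies on chromosome 6 (chr6:48986861-48991725, plus strand) and Ceacam10 on chromosome 7 (chr7:24777167-24784656, plus strand). Pate4 (chr9:35607093-35611885) and Pate14 (chr9:36635754-36638602) share the minus strand of chromosome 9 but stand 1023869 bases apart. The 10 genes thus lie on 4 chromosomes.

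The promoters of 5 genes of the cluster share a short stretch before the start of transcription, shown from 50 bases before to 20 bases after the RefSeq start (GRCm38.p6, each on its gene's strand). Capitals mark TATAAA, the core of the TATA box, where it begins 40 to 20 bases before the start:
Svs3a (chr2:164289217-164289286): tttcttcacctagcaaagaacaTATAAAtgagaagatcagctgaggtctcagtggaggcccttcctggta
Svs3b (chr2:164256624-164256693): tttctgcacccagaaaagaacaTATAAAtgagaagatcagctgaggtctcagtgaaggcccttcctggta
Svs4 (chr2:164278288-164278357): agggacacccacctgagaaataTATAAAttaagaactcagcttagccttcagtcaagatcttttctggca
Svs5 (chr2:164332715-164332784): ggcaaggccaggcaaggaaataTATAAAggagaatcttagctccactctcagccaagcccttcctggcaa
Svs6 (chr2:164316701-164316770): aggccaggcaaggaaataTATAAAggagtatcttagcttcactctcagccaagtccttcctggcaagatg
The motif began 28 bases before the start in Svs3a, Svs3b, Svs4 and Svs5, and 32 bases before it in Svs6. It was found at that place, on the coding strand, in 5 of the 9 genes with a promoter in the table and in 1.99% of all 32851 promoters. Anywhere in the 300 bases of the window, TATAAA occurred in 6 of the 9, all of chromosome 2, and in 8.32% of all promoters. AGAACA, an arm of the androgen response element, or its reverse complement TGTTCT occurred in 6 of the 9 (Ceacam10, Svs1, Svs3a, Svs3b, Svs5 and Svs6) and in 19.0% of all promoters. The whole element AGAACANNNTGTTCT, which is its own reverse complement, occurred in 0 of the 9 and in 3 of all promoters. The 9 are counted by gene, though Svs3a and Ceacam10 have more than 1 promoter, and the shares of all are counted by promoter. These counts are therefore not quite alike. A match describes the letters of the window and no site in use.

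Svs5 was the most abundant transcript of the table in each creeping fat library. Svs5, the fifth of the numbered seminal vesicle proteins, had 6207, 12003 and 12624 FPKM in creeping fat 1, 2 and 3, against 0.171, 20.5 and 2.76 FPKM in control 1, 2 and 3. The 3 creeping fat libraries stood far above the 3 controls, creeping fat 1 was the lowest of them, and among the controls only control 2 passed 3 FPKM. In controls Svs5 ranked 14623, 2900 and 9999 among all genes.

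Svs4, a small basic protein whose rat counterpart binds sperm, had 3601, 7414 and 7269 FPKM in creeping fat, against 0, 14.2 and 1.52 FPKM in controls. It was the fourth most abundant gene in creeping fat 1 and the second in creeping fat 2 and 3. Svs2 had 2176, 3985 and 3568 FPKM in creeping fat, against 0, 5.96 and 0.968 FPKM in controls. Svs6 had 1354, 2600 and 2716 FPKM in creeping fat, against 0, 6.09 and 0.346 FPKM in controls. In each of these genes the groups did not overlap and the libraries within a group kept the order seen for Svs5 in its broad form, with creeping fat 1 lowest, control 1 at 0 and control 2 the highest control.

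The near-identical pair Svs3a and Svs3b, whose proteins take part in the clot, had similar levels. Svs3b had 500.2, 944 and 889 FPKM in creeping fat, against 0, 0.999 and 0.331 FPKM in controls. Svs3a had 473, 789 and 873 FPKM in creeping fat, against 0, 1.25 and 0.326 FPKM in controls. Each pair of values within a library lay close together.

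The genes outside chromosome 2 followed the same pattern. Svs1 had 1069, 1985 and 1926 FPKM in creeping fat, against 0, 3.43 and 0.522 FPKM in controls. Ceacam10 had 563, 1149 and 1024 FPKM in creeping fat, against 0, 2.24 and 0.339 FPKM in controls. Both were lowest in creeping fat 1 and highest among the controls in control 2. Pate4, also known as caltrin for its block of calcium uptake by sperm, had 577, 1011 and 1058 FPKM in creeping fat, against 0, 0.978 and 0.0680 FPKM in controls. Pate14 was the least abundant, with 438, 613 and 617 FPKM in creeping fat, against 0, 1.09 and 0.0372 FPKM in controls. Even for Pate14 the lowest creeping fat library was 403-fold above the highest control, and over the 10 genes this ratio ran from 222 (Svs6) to 589 (Pate4).

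**Figure D1:**
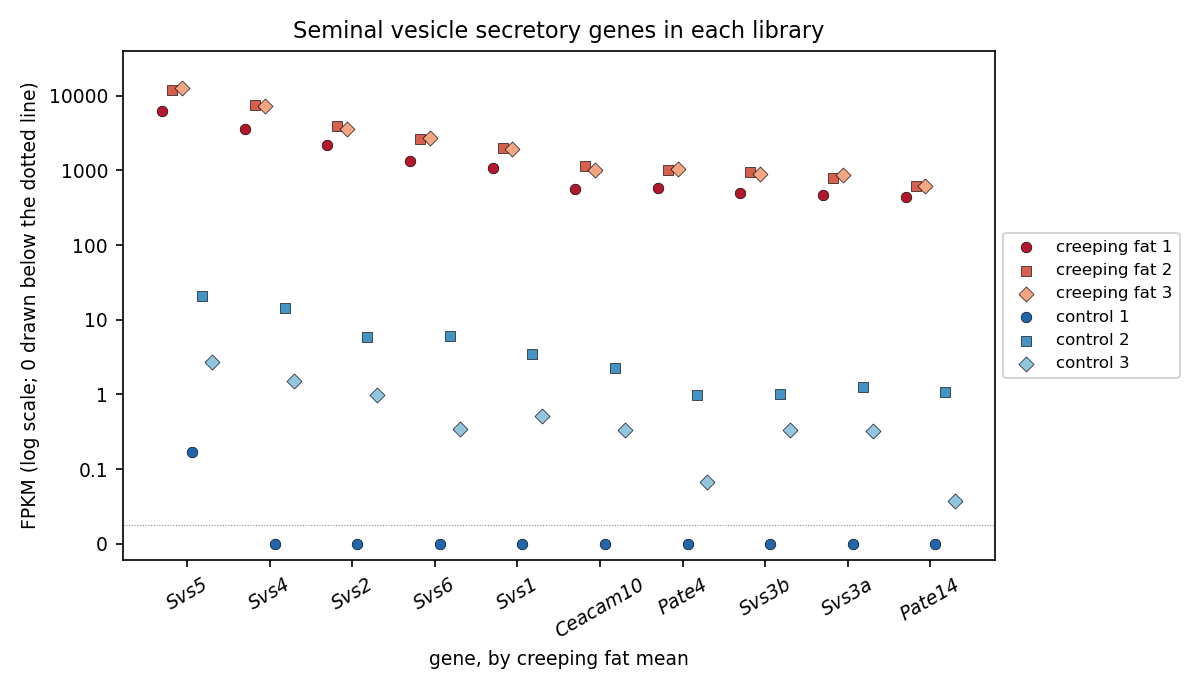
FPKM on a log axis of each gene in each library, genes ordered by their creeping fat mean, with zeros drawn below the dotted line. Red marks are the 3 creeping fat libraries and blue marks the 3 controls. All red marks lie between 438 and 12624 FPKM and all blue marks at or under 20.5 FPKM, with control 1 at 0 for every gene but Svs5.

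As means, Svs5 reached 10278 ± 3539 FPKM in creeping fat (SD, n = 3), Svs4 6095 ± 2161, Svs2 3243 ± 948, Svs6 2223 ± 755 and Svs1 1660 ± 512. The other 5 lay between 556 ± 102 (Pate14) and 912 ± 309 (Ceacam10). On the scale of log2(FPKM + 1), the difference of creeping fat minus control ran from 8.73 ± 0.31 (Pate14) to 11.07 ± 0.98 (Svs5; limma's standard error), with a median of 9.55 over the 10 genes and of 0.02 over all genes tested. These 10 were the 10 largest differences of the 12812 genes tested. In all 10 every creeping fat library was above every control, as in 20.2% of all genes tested. The choice of the genes used this contrast, so nothing is read from these ranks and this count. All 10 passed the filter (1 FPKM or more in 3 or more libraries), and did so through creeping fat.

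Summed over the 10 genes, the transcripts made up 5.17%, 9.18% and 9.25% of all FPKM of creeping fat 1, 2 and 3, against 4.7e-05%, 0.0166% and 0.00208% in control 1, 2 and 3. The creeping fat mean was 7.87 ± 2.33% (SD, n = 3). Because most of these transcripts are short, their share of the reads was smaller, 1.56%, 2.94% and 2.89% in creeping fat. Among the 20 most abundant genes of a library, 4, 5 and 5 were seminal vesicle genes in creeping fat 1, 2 and 3, and 0 in each control. The library totals by which all FPKM are scaled include these reads.

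The depth was enough to count the traces in controls. Whole reads recovered from the FPKM values summed over the 10 genes to 563065, 1027684 and 948804 in creeping fat and to 4, 1544 and 302 in controls, of library totals of 32837045 to 36158204 in creeping fat and 31186018 to 43415696 in controls. All 4 reads of control 1 were of Svs5, with an exact 95% Poisson interval of 1.09 to 10.2 reads. In control 2 and control 3 all 10 genes had reads. Control 2 had 385 reads of Svs5, 297 of Svs1 and 292 of Svs2, and its lowest count was the 21 of Pate14. Control 3 had 72 reads of Svs5, 3 of Pate4 and 1 of Pate14. Intervals and floors cover counting error only, since reads without molecular identifiers are not independent molecules.

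For the 9 genes at 0 in control 1, the creeping fat mean was set against a chosen floor of 3 reads in that library. A count of 0 has an exact 95% upper limit of 3.69 reads, so this floor is no 95% bound. The mean of Svs4 was 45402-fold above its floor of 0.134 FPKM, and that of Pate14 4459-fold above its floor of 0.125 FPKM. Relative to the creeping fat mean, control 2 held 0.208% of the summed level and control 3 0.0264%. Per gene, control 2 held 0.111% (Pate4) to 0.274% (Svs6) and control 3 0.00669% (Pate14) to 0.0458% (Svs3a). The lowest creeping fat library was 299-fold above control 2 in the summed level. Where the control reads came from was not tested.

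The mix of the 10 transcripts was nearly the same in each creeping fat library. Svs5 made up 36.6% to 38.8% of their summed FPKM, Svs4 21.2% to 22.8% and Svs2 10.96% to 12.8%, so these 3 together took 70.7%, 72.0% and 72.0%. The traces in controls had a like mix: Svs5, Svs4 and Svs2 together took 71.7% in control 2 and 72.7% in control 3. The 6 genes of chromosome 2 took 84.4%, 85.4% and 85.8% in creeping fat, against 86.4% in control 2 and 86.6% in control 3. Across the 10 genes, log2 levels of each pair of creeping fat libraries had a Pearson's r of 0.995 to 0.997. Control 2 had an r of 0.970 to 0.974 with the creeping fat libraries, and control 3, with fewer reads, one of 0.840 to 0.869. These are descriptions over 10 genes of shared libraries, and genes are not independent replicates.

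**Figure D2:**
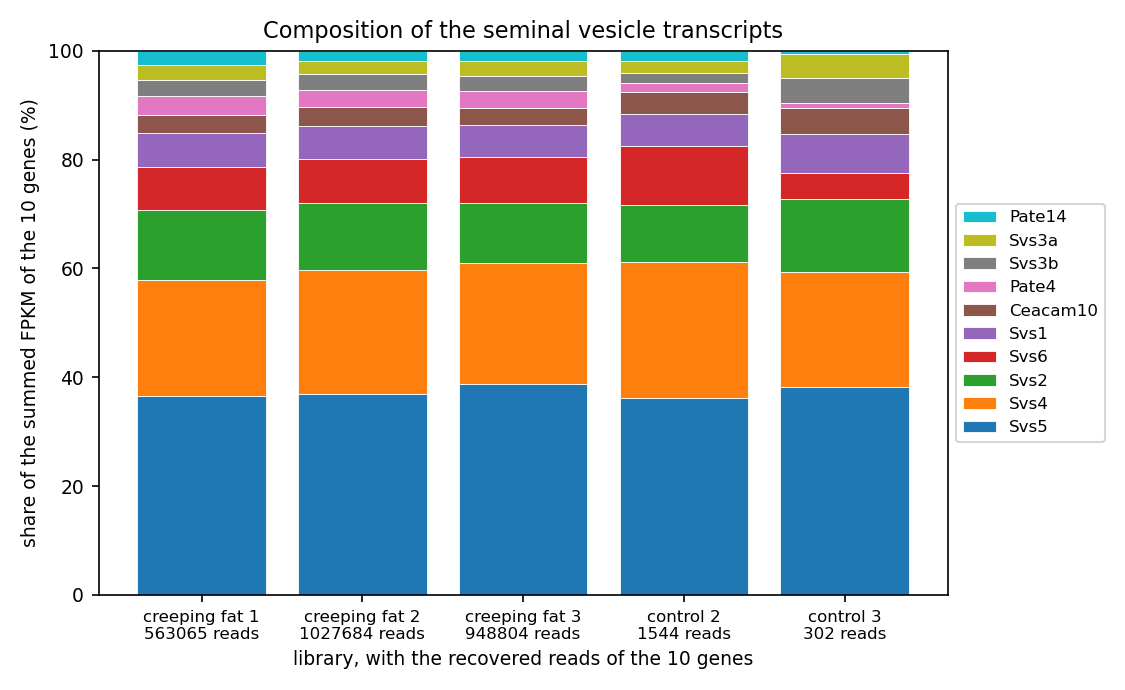
Share in percent of each gene in the summed FPKM of the 10 genes, for the 3 creeping fat libraries on the left and control 2 and 3 on the right, with the recovered reads below each bar. The bottom 3 blocks (Svs5, Svs4 and Svs2) end between 70.7% and 72.7% in all 5 bars, and control 1, with 4 reads, is left out.

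The smaller blocks differed more. Svs6 was 7.99% to 8.34% of the sum in creeping fat, against 10.7% in control 2 and 4.80% in control 3. Pate4 was 3.11% to 3.40% in creeping fat, against 1.72% in control 2 and 0.942% in control 3, where it rests on 3 reads. Svs3a and Svs3b were each under 3% in every creeping fat library and at 4.52% and 4.59% in control 3, from 17 and 18 reads.

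Creeping fat 1 held close to the same fraction of each transcript relative to the other creeping fat libraries. The ratio of creeping fat 1 over creeping fat 2 ran from 0.486 for Svs4 (95% interval 0.481 to 0.490) to 0.715 for Pate14 (0.696 to 0.734), with a median of 0.534. The ratio of creeping fat 1 over creeping fat 3 ran from 0.492 (Svs5) to 0.710 (Pate14), with a median of 0.548. Creeping fat 3 and creeping fat 2 were close, with ratios of creeping fat 3 over creeping fat 2 from 0.891 (Ceacam10) to 1.11 (Svs3a) and a median of 0.994. Over the summed FPKM the 3 ratios were 0.522, 0.521 and 1.00.

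Pate14 had the highest ratio of creeping fat 1 over creeping fat 2 and over creeping fat 3. Its interval for creeping fat 1 over creeping fat 2 did not meet that of any of the other 9. The highest of these was Svs3a at 0.5997 (0.589 to 0.610). The interval of Pate4 (0.571, 0.561 to 0.580) also met no other, so such a gap was not particular to Pate14. That of Svs3a met no other either, but its value apart from Svs3b is uncertain. The deposited values allow this comparison of libraries only within their counting error, with 1 library on each side of a ratio.

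The 10 genes named here from outside the set had the pattern most like the summed 10 genes, by cosine similarity of FPKM over the 6 libraries among 8256 genes with a creeping fat mean of at least 5 FPKM. 9530003J23Rik came first with a cosine of 0.999, and had 157, 342 and 329 FPKM in creeping fat, against 0, 0.289 and 0.0378 FPKM in controls. Sva, the seminal vesicle antigen that binds sperm, had 375, 739 and 634 FPKM in creeping fat, against 0, 0.887 and 0.318 FPKM in controls. Spinkl, a Kazal-type protein of seminal plasma, had 443, 667 and 648 FPKM in creeping fat, against 0, 1.56 and 0.181 FPKM in controls. Each of these had creeping fat 1 lowest and control 2 as the highest control, like the members. They were picked for a like pattern over these same libraries, so nothing is read from this order.

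Dnase2b, an acid DNase, had 22.4, 49.2 and 45.3 FPKM in creeping fat and at most 0.193 FPKM in a control. Spink1, a trypsin inhibitor of the seminal vesicle that pancreatic acinar cells make too, had 149, 318 and 299 FPKM in creeping fat, against 26.6, 39.4 and 18.6 FPKM in controls. Spink1 was therefore the one of these named genes with over 10 FPKM in every control. Wfdc15b, Elf5, Dkkl1, Shisa4 and Spink11 completed the 10, with creeping fat means of 5.49 to 27.3 FPKM, and Spink11 was at 0 in all controls. The cosines of the 10 genes ran from 0.987 to 0.999, against 0.994 to 1.000 for the members themselves. The sum contains each member but none of the 10 outside genes, so these ranges are not alike. None of the 10 outside genes was among the 10 nearest by Pearson's r of log2 values, so this ranking depends on the measure.

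Many genes of a list of other seminal vesicle genes were also higher in creeping fat. Of its 18 genes in the table, 13 were tested and limma called 10 higher in creeping fat and 0 lower at a Benjamini-Hochberg adjusted p under 0.05, against 9.35% and 6.81% of all genes tested. The median log2 difference of the 13 was 2.48. Sva, Spinkl, 9530003J23Rik, Wfdc15b, Pate6 and 9530002B09Rik had at most 1 control library at 1 FPKM and so entered the test through creeping fat, where they are high, which the count carries with it. Slpi, 9530002B09Rik, Gpx3, Serpine2 and Sdc4 were lowest in creeping fat 2 among the creeping fat libraries, unlike the 10 members. Sva, Spinkl and 9530003J23Rik rose by 8.69 ± 0.33, 8.64 ± 0.37 and 7.89 ± 0.31 on the log2 scale (limma, adjusted p = 9.03e-05, 1.02e-04 and 9.72e-05). Slpi, a secreted inhibitor of leukocyte elastase, rose by 4.20 ± 0.54 (limma, adjusted p = 0.00460). Wfdc15b, Pate6 and 9530002B09Rik rose by 2.49 ± 0.23, 2.48 ± 0.41 and 3.37 ± 0.84. Gpx3, the secreted glutathione peroxidase, Serpine2, a protease inhibitor, and Sdc4, a syndecan, rose by 1.86 ± 0.22, 2.06 ± 0.26 and 0.81 ± 0.16. 9530002B09Rik lost its call without creeping fat 1, creeping fat 3, control 1 or control 3, and Sdc4 without any 1 creeping fat library or control 3 (highest adjusted p 0.125 and 0.0919). Gpx3, Serpine2 and Sdc4 had 12.2 to 323 FPKM in control 1 already and are made in many tissues. Mfge8, Sval1 and Clu were tested and not called.

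The 5 untested genes of that list were low. Sval2 had 1.69, 0.154 and 2.40 FPKM in creeping fat and 0 in controls. Wfdc15a was at 0 in all 6 libraries, and Sval3, Pate7 and Eppin did not pass 0.3 FPKM in any.

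Genes of the prostate and coagulating gland were also found, at a lower level. Tgm4, which cross-links the Svs proteins, had 59.4, 6.37 and 40.1 FPKM in creeping fat, against 0.0685, 0.374 and 0.161 FPKM in controls. Pbsn, which encodes probasin, a secreted prostate protein, had 61.0, 5.34 and 42.6 FPKM in creeping fat, against 0, 0.164 and 0 FPKM in controls. In these genes creeping fat 2 was the lowest of the creeping fat libraries, while for all 10 seminal vesicle genes it was creeping fat 1. Tgm4 rose by 4.46 ± 0.73 on the log2 scale and Pbsn by 4.62 ± 0.79 (limma, adjusted p = 0.00946 and 0.0110). Pbsn lost its call without control 3, with an adjusted p of 0.0506.

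Of the 12 genes of the prostate list 5 were tested, and Tgm4, Pbsn and Spink1 were called higher and 0 lower, against 9.35% and 6.81% of all genes tested. Tgm4 and Pbsn had no control library at 1 FPKM and entered the test through creeping fat. Spink1, the most abundant of the list, was lowest in creeping fat 1 like the 10 members. The summed level of the list was 285, 340 and 393 FPKM in creeping fat, against 28.9, 47.6 and 22.8 FPKM in controls. It was lowest in creeping fat 1 too, but Spink1 was the larger part of it in every library, so its order is not that of Tgm4 and Pbsn. Hoxb13 and Cxcl17 were tested and not called. Sbp, a spermine-binding protein of the ventral prostate, was at 0 in all creeping fat libraries, and Sbpl was at 0 everywhere. Defb50 had 1.93, 0.4605 and 2.86 FPKM in creeping fat and 0 in controls. Spink8 had 0.307, 1.555 and 2.07 FPKM in creeping fat and at most 0.0318 FPKM in controls. Azgp1 and Msmb had creeping fat means of 2.002 and 0.245 FPKM, against control means of 0.509 and 0.0457 FPKM. Folh1 went the other way, with means of 0.349 FPKM in creeping fat and 0.768 FPKM in controls. Like Sbp and Sbpl, none of these was tested.

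The 5 genes compared here, chosen after their values were seen, show how far the order of Tgm4 and Pbsn can depart from that of the 10 genes. Creeping fat 1 over creeping fat 2 was 11.4 for Pbsn, 9.33 for Tgm4, 17.3 for 9530002B09Rik, 6.77 for Pate9 and 3.37 for Slpi. For the 10 seminal vesicle genes it was 0.486 to 0.715. Creeping fat 3 over creeping fat 2 was 3.95 to 14.4 for the same 5 genes, and 0.891 to 1.11 for the 10.

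**Figure D3:**
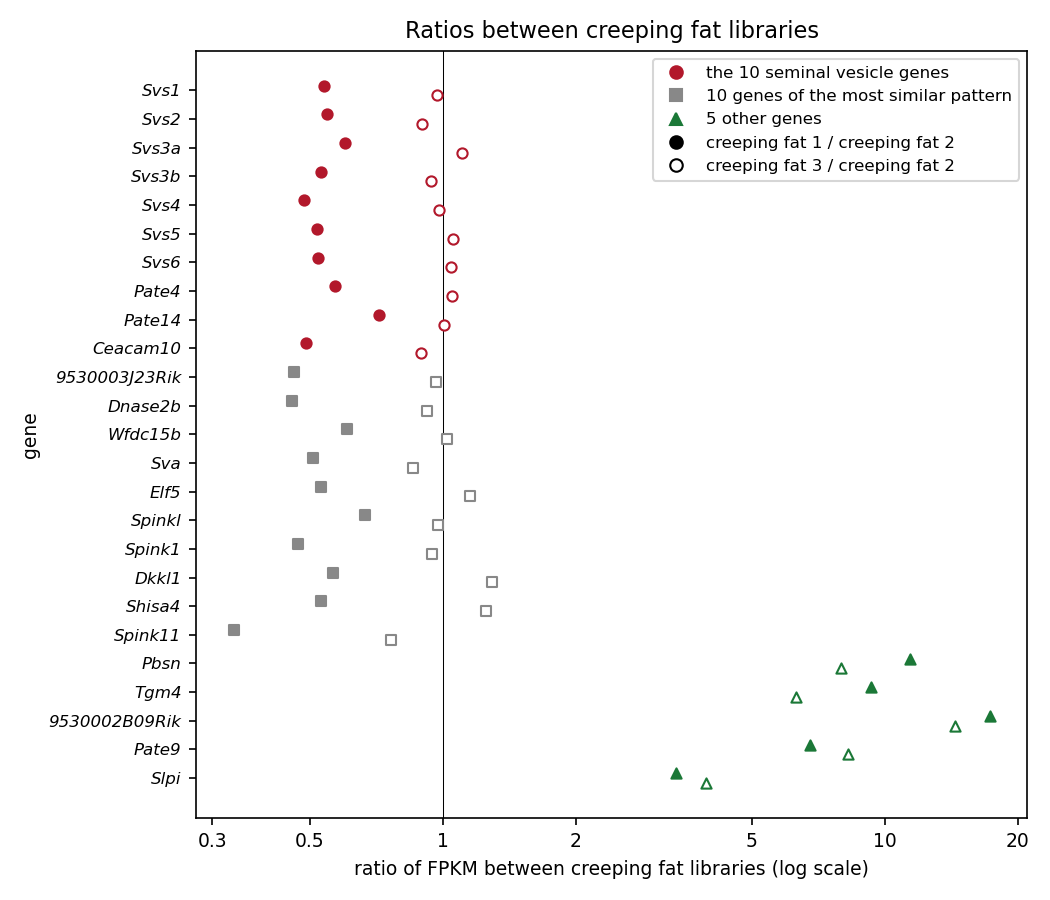
Ratios of FPKM between creeping fat libraries on a log axis, creeping fat 1 over creeping fat 2 as filled marks and creeping fat 3 over creeping fat 2 as open marks, with 1 marked by the vertical line. The 10 seminal vesicle genes and the 10 genes of most similar pattern lie at 0.336 to 0.715 (filled) and 0.762 to 1.29 (open), and the 5 other genes, chosen after their values were seen, lie at 3.37 to 17.3 and 3.95 to 14.4.

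Most genes of neighbouring organs were at or near 0. Of 18 epididymis genes 10 were at 0 in all 6 libraries and only Cuzd1 was tested. Cuzd1, which pancreatic acinar cells make too, had 0, 9.91 and 0 FPKM in creeping fat, against 29.8, 34.7 and 12.1 FPKM in controls, and was not called. Rnase10 and Teddm1a did not pass 0.7 FPKM in any library. Of 9 testis germ cell genes 0 were tested. Tssk6 was the highest of them, at 0.450 to 0.616 FPKM in creeping fat and 0.251 to 1.32 FPKM in controls, ahead of Tnp1 and Odf1. Of 5 urothelium genes 2 were tested, Upk1b and Upk3b, and neither was called. Upk3b, which mesothelium makes too, had 1.25, 12.8 and 2.20 FPKM in creeping fat, against 37.8, 1.24 and 31.9 FPKM in controls. Upk1b had a mean of 4.78 FPKM in creeping fat and 5.63 FPKM in controls. The untested Upk1a, Upk2 and Upk3a were low, with higher means in creeping fat. Upk1a had at most 1.51 FPKM, with means of 1.18 FPKM in creeping fat and 0.444 FPKM in controls. Upk2 had 0.443, 1.703 and 0.871 FPKM in creeping fat and 0 in controls. Upk3a had 0, 1.398 and 0.743 FPKM in creeping fat and at most 0.116 FPKM in controls.

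Fkbp5, a target of androgens and glucocorticoids, had 17.3 to 32.1 FPKM in creeping fat and 21.5 to 32.5 FPKM in controls and was not called. Of 18 genes of the androgen axis and of transcription factors of the ducts, 13 were tested and 5 were called higher and 0 lower, against 9.35% and 6.81% of all genes tested. The 5 were Hoxa13, Hoxd13, Gata3, Hoxa11 and Srd5a1, while Tmprss2 and Hoxd9, which followed Fkbp5 in creeping fat mean (5.42 and 5.41 FPKM), were not called. Hoxa13, Hoxd13, Gata3 and Srd5a1 had at most 1 control library at 1 FPKM and entered the test through creeping fat. Leaving out 1 library gave 2 to 6 calls. Hoxa13 and Hoxd13, homeobox genes of the hind end of the body and its ducts, rose by 1.58 ± 0.26 and 1.57 ± 0.26 (limma, adjusted p = 0.00935 and 0.0104). Hoxa13 had 3.67, 1.67 and 3.26 FPKM in creeping fat, against 0.429, 0.0487 and 0.315 FPKM in controls. Srd5a1, which turns testosterone into dihydrotestosterone, rose by 0.74 ± 0.19 and lost its call under 7 of 12 other settings, among them leaving out any 1 library but control 2. Leaving out 1 library also ended the calls of Gata3 (creeping fat 2, creeping fat 3 or control 3; highest adjusted p 0.0619) and Hoxa11 (any creeping fat library or control 3; 0.143). The hindgut also uses Hoxa13 and Hoxd13, and the tissue these transcripts came from was not tested.

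Genes of epithelia in general were higher in part. Of 19 listed 15 were tested and 5 were called higher and 0 lower, against 9.35% and 6.81% of all genes tested. Cldn4 and Elf3 had at most 1 control library at 1 FPKM and entered the test through creeping fat. The 5 were Cldn3 and Cldn4, which encode tight junction proteins, Krt18, a keratin of simple epithelia, and the transcription factors Ehf and Elf3. Cldn4 apart, each of the 5 lost its call in at least 6 of the other settings. Without control 2 the count was 12, and without creeping fat 1, creeping fat 2, control 1 or control 3 it was 1. Cldn4, called under all 12 other settings run for it, had 2.90, 5.09 and 5.53 FPKM in creeping fat, against 0.199, 0.814 and 0.686 FPKM in controls. The most abundant of the list, Krt8, Spint2 and Krt19, were not called. Gut epithelium genes had a summed level of 207, 154 and 16.5 FPKM in creeping fat and 12.02, 86.5 and 95.01 FPKM in controls, and 0 of 9 tested were called. Muc2, the mucin of goblet cells, led them with 3.69 to 82.5 FPKM in creeping fat and 2.87 to 24.9 FPKM in controls, followed by Tff3 and Lgals4. The part of gut epithelium in the epithelial genes was not tested.

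Along chromosome 2 the genes on each side of the cluster differed from it in level or in the order of the libraries. Wfdc15b, which starts the flank 14266 bases before Svs2, had 3.80, 6.26 and 6.40 FPKM in creeping fat, against 0.0436, 0.380 and 0 FPKM in controls. Beyond it Wfdc15a was at 0 in all libraries and Wfdc12 at 0 in all creeping fat libraries. On the other side Slpi, 19676 bases past Svs5, had 477, 142 and 559 FPKM in creeping fat, against 24.1, 11.5 and 18.4 FPKM in controls. Slpi was thus high as well, but lowest in creeping fat 2, unlike the cluster. Matn4 and Rbpjl, the next 2 genes, were tested and not called.

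**Figure D4:**
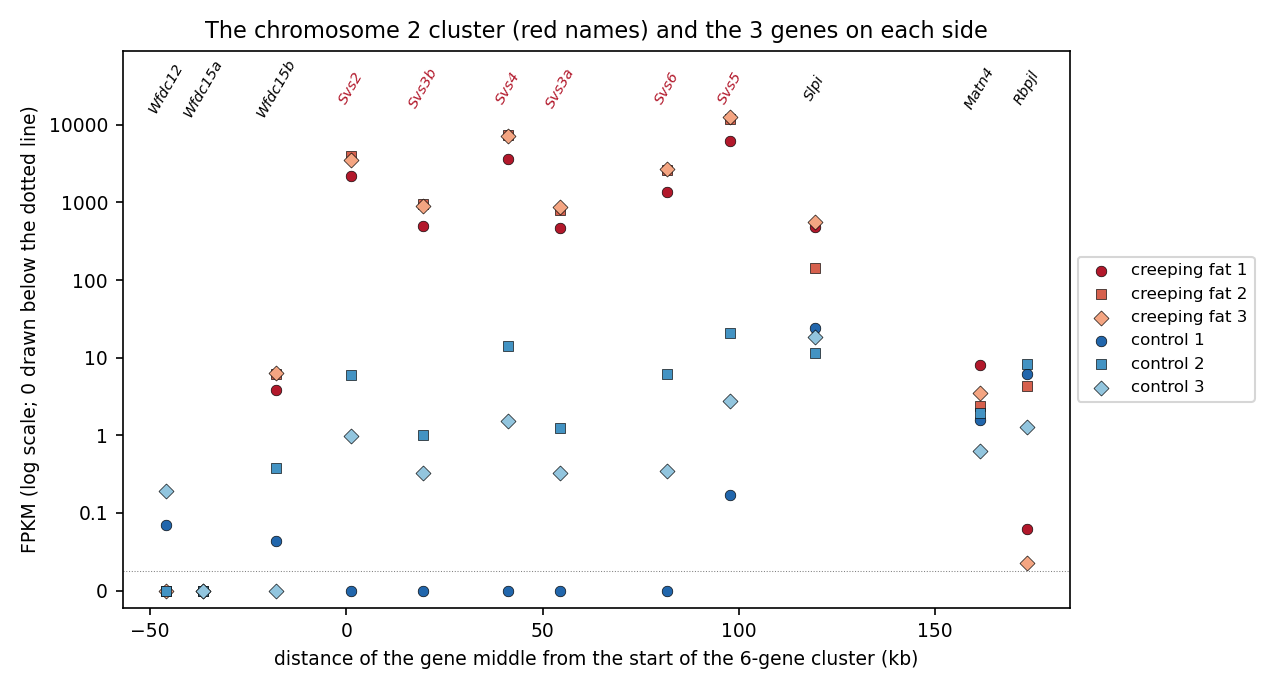
FPKM on a log axis of the 6 genes of chromosome 2 (red names) and of the 3 genes of the table on each side, against the distance in kilobases of the middle of each gene from the start of the cluster, with zeros drawn below the dotted line. Red marks are creeping fat and blue marks controls; the 6 genes lie at 473 to 12624 FPKM in creeping fat, and of the flanking genes only Slpi passes 10 FPKM there.

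Of the 6 genes next to Svs1 on chromosome 6, only Aoc1, Gpnmb and Malsu1 were tested. Of these 2 were called higher, against 9.35% of all genes tested. Doxl2, a relative of the amine oxidases 8116 bases before Svs1, had 0.568, 1.43 and 2.10 FPKM in creeping fat and 0 in controls. Doxl1 did not pass 0.07 FPKM. Aoc1, the diamine oxidase, rose by 1.45 ± 0.36 (limma, adjusted p = 0.0385), a call lost under 6 of 12 other settings, among them leaving out creeping fat 1, creeping fat 2, control 1 or control 3. Gpnmb, a glycoprotein of lipid-laden macrophages on the other side of Svs1, had 225, 66.5 and 200 FPKM in creeping fat, against 10.5, 26.4 and 9.50 FPKM in controls. It rose by 3.28 ± 0.55 (limma, adjusted p = 0.0105, a call lost without control 3). Aoc1 had no control library at 1 FPKM and entered the test through creeping fat. Malsu1 was tested and not called, and Igf2bp3 stayed under 1 FPKM in every library.

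Most other Pate genes, on chromosome 9 like Pate4 and Pate14, were low. Pate8, 53119 bases before Pate14, had 2.43, 3.30 and 4.43 FPKM in creeping fat and 0 in controls, and rose by 2.11 ± 0.20 (limma, adjusted p = 0.00182). Pate9, the next gene, had 7.53, 1.11 and 9.21 FPKM in creeping fat and 0 in controls, and was called, with creeping fat 2 lowest as in Tgm4 and Pbsn. Stt3a, a subunit of the oligosaccharyl transferase past Pate14, had 31.8 to 39.8 FPKM in creeping fat, against 20.7 to 24.6 FPKM in controls, and was called. Pate9 lost its call without creeping fat 1, creeping fat 3, control 1 or control 3, and Stt3a without any 1 library but control 2 (highest adjusted p 0.105 and 0.106). Of the 12 Pate genes other than Pate4 and Pate14, 9 stayed under 1 FPKM in every library and 3 of these were at 0 throughout. Pate8 and Pate9 were at 0 in all controls and entered the test through creeping fat. Next to Pate4, Pus3 and Hyls1 were tested and not called, and Ddx25, Pate1 and Pate3 did not pass 0.3 FPKM in any library. Near Pate14, Pate11 was at 0 throughout, and Acrv1 and Chek1 stayed under 1 FPKM. Pate2, whose annotated span overlaps the start of Pate4 (minus strand), had at most 0.137 FPKM in creeping fat and at most 0.114 FPKM in controls.

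Most other Ceacam genes were low as well. Of the 14 other Ceacam genes 10 stayed under 1 FPKM in every library. Ceacam1, an adhesion molecule of epithelial and immune cells, was the highest of them in creeping fat, with 20.7, 16.2 and 5.57 FPKM in creeping fat, against 6.23, 14.5 and 21.7 FPKM in controls. Of the 6 genes next to Ceacam10, Cd177 and the ribosomal protein gene Rps19 were tested and neither was called, and Lypd4, Lypd10, Lypd11 and Dmrtc2 did not pass 0.04 FPKM.

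Markers of other tissues moved with the group beside the seminal vesicle genes. Adipocyte markers, which define the labelled tissue, held 0.486%, 1.22% and 0.689% of all FPKM in creeping fat, against 5.89%, 2.35% and 5.89% in controls, and 0 of the 12 were at 0 in any library. In bulk samples, fewer cells of a type and less RNA per cell cannot be told apart. Of the 12, 11 were called lower, against 6.81% of all genes tested, and only Cfd was not. Fabp4, a fatty acid carrier, had 372, 843 and 503 FPKM in creeping fat, against 4764, 1703 and 4953 FPKM in controls. Car3, the carbonic anhydrase of fat and muscle, fell by 2.74 ± 0.50 (limma, adjusted p = 0.0135). Leaving out creeping fat 1, creeping fat 3 or control 3 ended the calls of Car3 and Fabp4 (highest adjusted p 0.0643 and 0.0690), and leaving out control 1 that of Fabp4.

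Pancreatic acinar genes ran the other way from the seminal vesicle genes. They held 0.00884%, 1.54% and 0.00466% of all FPKM in creeping fat, against 9.35%, 11.7% and 4.52% in controls. Of the 15, 11 were called lower and 0 higher, against 6.81% and 9.35% of all genes tested. Ctrb1, a chymotrypsinogen, had 3.399, 2210 and 2.44 FPKM in creeping fat, against 8604, 9145 and 3912 FPKM in controls, and was not called, as were Prss2, Try5 and Pnliprp1. Creeping fat 2, the creeping fat library with the most pancreatic transcript, was not set apart in the seminal vesicle genes, where it lay close to creeping fat 3. With these genes and the 10 members taken out of the totals, creeping fat 1 over creeping fat 2 was 0.531 for the summed 10 genes, against 0.522 with them. Which tissue of the samples carried the seminal vesicle transcripts was not tested.

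**Figure D5:**
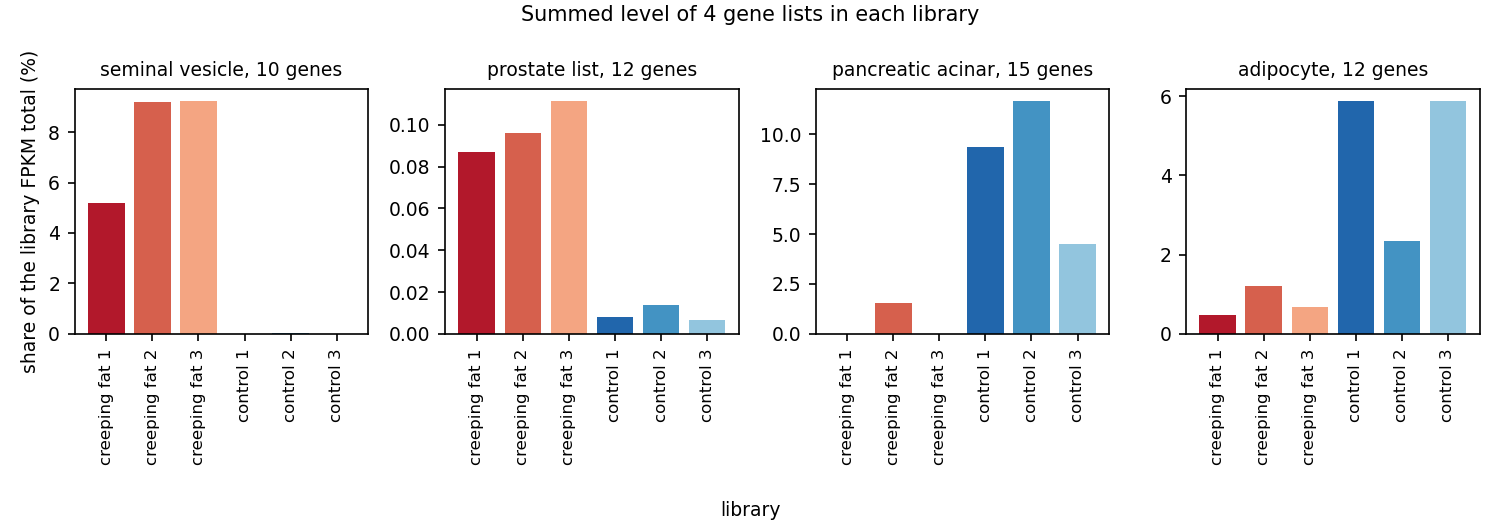
Share in percent of the library FPKM total, on a separate linear axis for each panel, of the 10 seminal vesicle genes, 12 prostate and coagulating gland genes, 15 pancreatic acinar genes and 12 adipocyte markers. Creeping fat libraries (red) are left of controls (blue); the seminal vesicle genes hold 5.17% to 9.25% in creeping fat against 0.0166% or less in controls. The prostate genes hold 0.0870% to 0.112% in creeping fat against 0.00657% to 0.0139% in controls. Spink1 is the larger part of this level in every library. It had 149, 318 and 299 of 285, 340 and 393 FPKM in creeping fat 1, 2 and 3. In control 1, 2 and 3 it had 26.6, 39.4 and 18.6 of 28.9, 47.6 and 22.8 FPKM.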

How the data were processed

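Total RNA of 3 creeping fat and 3 control samples was made into stranded libraries after removal of ribosomal RNA, from RNA of integrity number 7 or more, per the labels' protocols. The authors deposited 1 table of FPKM, fragments scaled by gene length and library size, with mm10 as the build per the submitters' processing notes. Which aligner, annotation and counting program were used, and whether strand was, is not given in the sources used here, so the reads of a gene and its antisense or overlapping partner cannot be told apart. Groups and replicate numbers came from the sample titles, and 0 other columns of per-sample values were left unused.

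Library totals were solved from the value of 1 read in short RefSeq genes, and each member's length from the range 50 to 20000 bases that makes its reads whole within 0.01. A count model was not used, since the deposited unit is FPKM. Genes that reached 1 FPKM in 3 or more libraries entered limma 3.58.1 (R 4.3.3) on log2(FPKM + 1), with a mean-variance trend, two-sided, with Benjamini-Hochberg adjustment over the 12812 genes tested and a threshold of 0.05. The fits and the read recovery were tested on simulated data. Intervals of reads are exact Poisson intervals and those of ratios come from exact binomial (Clopper-Pearson) intervals of the 2 libraries' reads, all at 95%.

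Members, lists and tests were chosen with earlier results of these data known. Named genes are the 10 members, the 10 of highest cosine similarity, the 3 genes of highest creeping fat mean and the called genes of each list (the called pancreatic and adipocyte genes are counted), and the 3 nearest genes on each side. Of 20 listed genes of the seminal vesicle, A630095E13Rik is an older symbol of Pate14 and Semg1 is not a name of the table. Some genes of the lists are not reported here and are left out of the counts. Sequences come from RefSeq (GRCm38.p6, promoters) and GENCODE vM21 (coding). Promoters of 9 of the 10 genes were matched; Pate4 was not among them. Other settings tried were pseudocounts of 0.1 and 0.5, no filter, a mean of at least 5 FPKM, quantile normalization, totals without members and pancreatic genes, a replicate block, and leaving out each library.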

Additional observations from a re-analysis of the deposited data

How the results depend on the processing

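The 130 alternative log2 differences of the single members lay between 8.55 and 12.2, and the members' median moved to 11.52 with a pseudocount of 0.1 and 10.23 with 0.5. The members were chosen on this contrast, so the positive sign was fixed beforehand and only the size is described. The mean share of the members in creeping fat, 7.87% of FPKM, was 2.46% of reads. With totals that leave out members and pancreatic genes, the summed ratios were 0.531 (creeping fat 1 over 2), 0.535 (creeping fat 1 over 3) and 0.991 (creeping fat 3 over 2). Same-numbered samples had correlations of deviations from their group means of -0.181, -0.180 and -0.081. Differently numbered samples had -0.138 to 0.244. With 3 libraries a group these values cannot tell whether the samples were paired. A fit with a replicate block called 636 genes higher and 378 lower. Leaving out 1 library gave 576 to 2896 genes higher and 287 to 1857 lower, the highest of each without control 2. With a mean of at least 5 FPKM, limma called 0 of the 2 androgen axis genes left (0 at an unadjusted p under 0.05) and 2 epithelial genes. Without 1 library the counts were 2 to 6 and 1 to 12. Fkbp5 moved between -0.34 (without creeping fat 1) and 0.088 (without creeping fat 2). The cause was not tested. Of 32 called genes outside the members that were followed through these settings, 15 kept their call in all of them and 17 lost it in at least 1. The 3 libraries a group and unknown counting of shared and antisense reads limit these values, and counts of 0 to 3 reads in controls rest on depth.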
